A study of Homo sapiens with 2 samples.

Results

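Antisense long noncoding RNA genes were taken as the genes whose symbol ends in -AS1, -AS2 or -AS3, leaving out EPB41L4A-AS1, and were followed across an induction of p53 in a colorectal carcinoma line. The arrays carried probe sets for 776 such genes. Of these, 357 were measured, that is, their signal reached 112.4 on at least 1 of the 2 arrays, and 419 were not. The measured antisense genes were 357 of 13978 measured genes. The level of 112.4 is the median signal over both arrays and is called the floor here. A gene was represented by its brightest measured probe set. RefSeq gives 354 of the 357 the biotype long noncoding RNA. Members were chosen by the higher signal of the 2 arrays compared, so a gene that reached the floor on only 1 array had to differ between them. The counts below describe the measured genes and are not evidence of a response of antisense genes as a class. Just inside the floor were LCT-AS1, whose signals were 112.45 and 34.9 (in each such pair of values the first is p53 off and the second p53 on), SH3PXD2A-AS1 (112.52 and 33.2) and IL12A-AS1 (97.9 and 112.6). Just outside it were TIAM1-AS1 (112.3 and 21.7), PROSER2-AS1 (111.7 and 21.3) and NCKAP5-AS1 (108.9 and 110.6).

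DLD-1 is an established human colon carcinoma line. Its cells here had been stably given a tet-off system for wild-type p53, and both groups carried it. Tetracycline silences such a transgene: the p53 off cells were grown with the drug, and the p53 on cells were kept 9 h after its withdrawal. There was 1 array per condition, so no difference has a replicate error and no test was possible. Values are described by their size, and the effect of p53 cannot be told apart from any other difference between the 2 cultures or arrays, tetracycline itself included.

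An antisense long noncoding RNA is transcribed from the strand opposite a protein-coding gene, its sense gene, after which it is named. Some start close to the sense gene's start and point away from it, so that both lie around a single promoter region, while others lie across the body of the sense gene. Individual members are known to act on chromatin, splicing, RNA stability or translation at their own locus or elsewhere, and many have no described function. p53 is a transcription factor that activates genes of cell-cycle arrest and apoptosis, and it lowers many genes of cell division through p21, the product of CDKN1A.

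The induction was visible in textbook targets. CDKN1A went from a signal of 2723 to 23349 (8.58-fold), and MDM2, the ubiquitin ligase that degrades p53, went from 2047 to 11792 (5.76-fold). Of 12 colorectal epithelial markers 9 were measured, with EPCAM at 20250 and 35534, LGALS4 at 259 and 1576 and KRT19 at 12217 and 25916. CDX2, at 690 and 461, was the lower one with p53 on among the 9, and their summed signal was 111959 and 178599. KRT20, CDX1 and GPA33 were under the floor on both arrays. Of 6 leukocyte markers 1 was measured (LAPTM5, 62.7 and 248), PTPRC being under the floor, and of 6 fibroblast and 4 endothelial markers 4 and 3 were measured, at no more than 231 and 224. The summed signal of the measured leukocyte markers was 62.7 and 248, that of the fibroblast markers 245 and 675, and that of the endothelial markers 180 and 529. The trimmed mean signal was 500.1 on both arrays, while the median over probe sets was 103.0 with p53 off and 121.8 with p53 on. The 3′ over 5′ signal ratio of beta-actin, a measure of RNA integrity, was 1.37 and 7.29, and that of GAPDH was 0.974 and 1.77. The median signal, the summed markers of every cell type listed and these ratios were thus higher on the p53 on array, on which more of the antisense genes reached the floor. Their part in the values below was not tested.

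The measured antisense genes were dim and more of them were higher than lower with p53 on. Of the 357, 56 (15.7%) were at least 2-fold higher with p53 on, against 15.2% of all measured genes, and 16 (4.48%) were at least 2-fold lower, against 13.4%. The share higher was near that of all genes, and the share lower was smaller. At 1.5-fold, 111 (31.1%) were higher against 25.8% of all measured genes, 49 (13.7%) were lower against 25.8%, and 197 lay between. At 4-fold, 12 of the 357 were higher and 2 lower, both smaller shares than the 4.77% and 1.77% of all measured genes. The median log2 ratio of p53 on over p53 off was 0.17 for antisense genes and 0.0044 for all genes. The split depended on the scaling. Of the antisense genes past 2-fold, 77.8% were on the higher side with the deposited scaling, 62.5% after quantile normalization and 55.1% after loess normalization. Scaling to the hybridization spike-ins gave 16.5% and moved the median log2 ratio of all genes to -0.79. Over all measured genes, quantile normalization gave 14.5% higher and 13.6% lower, loess normalization 15.1% and 11.35%, and spike-in scaling 5.84% and 41.3%. After loess normalization the antisense shares were 10.6% higher and 8.68% lower, both under those of all genes.

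**Figure D1:**
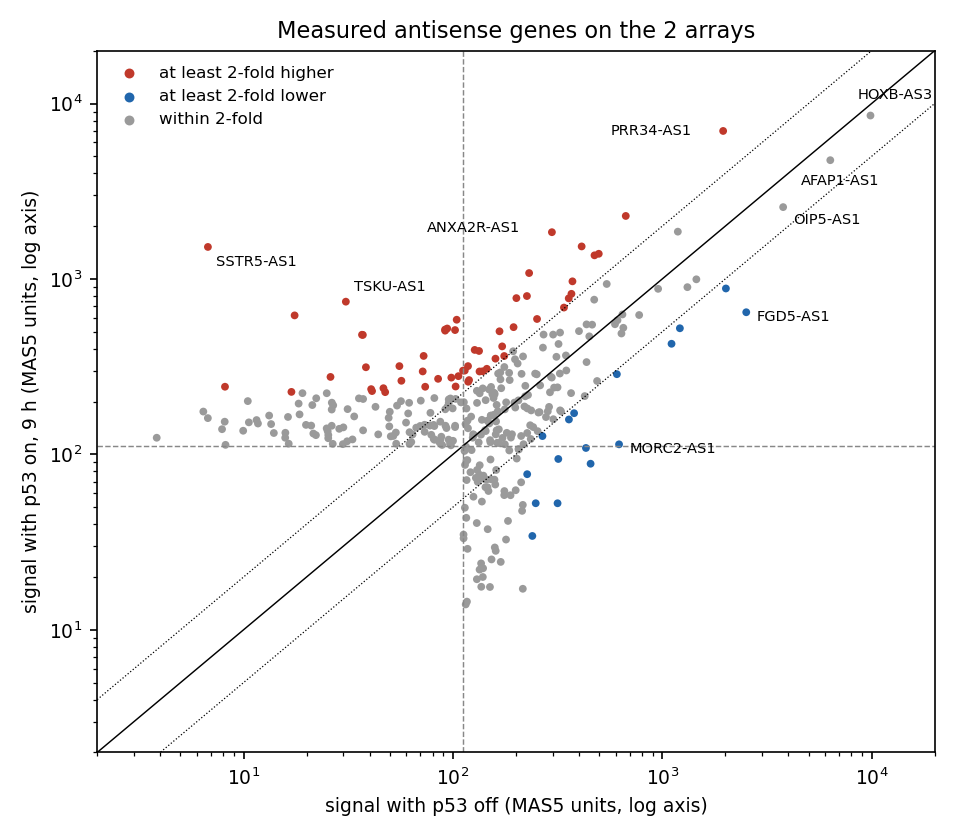
Signal of each of the 357 measured antisense genes with p53 off (x axis) and with p53 on for 9 h (y axis), both on log axes in MAS5 units. The solid line is equality, the dotted lines are 2-fold, the dashed lines are the floor of 112.4; 56 genes (red) passed 2-fold on the higher side and 16 (blue) on the lower when signals under the floor were set to it.

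Brightness set how large a difference could be seen. The median of the mean signal over both arrays was 148 for antisense genes and 583 for all measured genes, and 54.9% of antisense genes had 1 of their signals under the floor, against 23.2% of all genes. Of the antisense genes, 127 reached the floor only with p53 on, 69 only with p53 off, and 161 on both arrays. A signal under the floor was set to the floor, so the fold of such a gene is a lower bound and is written as "at least". A gene with a signal under the floor that is counted as within 2-fold may therefore differ by more. Of the 56 higher genes 28 are such bounds, as are 7 of the 16 lower genes. Among the 161 antisense genes at or above the floor on both arrays, 28 (17.4%) passed 2-fold on the higher side and 9 (5.59%) on the lower. The same shares over the 10737 genes at or above the floor on both arrays were 14.7% and 15.6%.

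Antisense and other genes were also set side by side within ranges of the higher signal, chosen with the data in view. From the floor to under 250, 8 of 236 antisense genes (3.39%) passed 2-fold upward and 3 (1.27%) downward, against 3.11% and 1.61% of all genes in that range. From 250 to under 1000, 40 of 103 (38.8%) were higher and 9 (8.74%) lower, against 20.3% and 16.5%. At 1000 or more, 8 of 18 (44.4%) were higher and 4 (22.2%) lower, against 19.1% and 18.6%. Over all 121 antisense genes at 250 or more, 48 (39.7%) were higher, against 19.6% of all genes at that level, and 13 (10.7%) were lower, against 17.8%. A gene at 250 or more whose other signal was under the floor is past 2-fold by construction. Over the 97 antisense genes at 250 or more with both signals at or above the floor, the shares were 28.9% higher and 9.28% lower, against 16.3% and 17.3% of all such genes. After quantile normalization the shares at 250 or more were 32.8% higher and 16.4% lower, against 18.9% and 17.8%, and after loess normalization 31.4% and 12.4%, against 20.6% and 13.7%. With a pseudocount equal to the floor in place of the floor, 24.8% were higher and 7.44% lower, against 16.4% and 13.6%. Scaling to the spike-ins turned the balance, with 14.8% higher and 50% lower, against 7.32% and 54.9% of all genes.

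Among other long noncoding RNAs, too, more were higher than lower with the deposited scaling. Of the 682 other measured genes of that biotype, 11.0% passed 2-fold upward and 3.81% downward, against 15.2% and 13.4% of all measured genes. Both shares were thus smaller than those of all genes. The median log2 ratio of the 682 was 0.15. At 250 or more, 58 of 175 (33.1%) were higher and 22 (12.6%) lower, against 19.6% and 17.8% of all genes at that level. The shares of this set were not taken under other scalings. The difference between the 2 classes of noncoding genes was not tested.

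**Figure D2:**
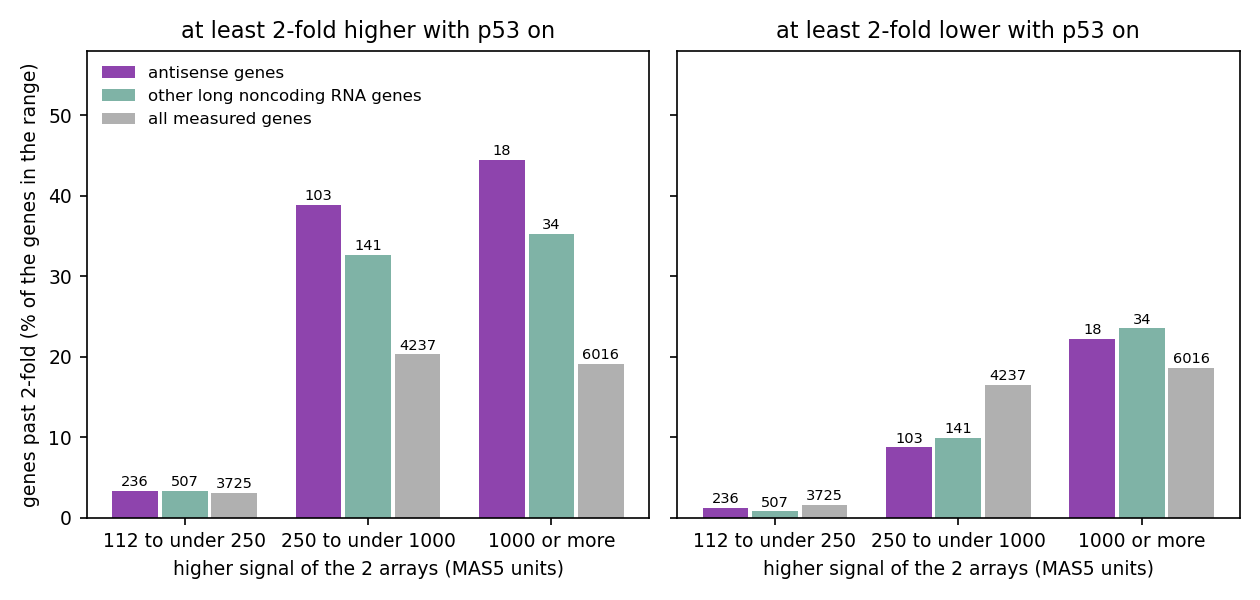
Share of genes at least 2-fold higher (left) and at least 2-fold lower (right) with p53 on, in percent of the genes in each range of the higher signal of the 2 arrays, for antisense genes, other long noncoding RNA genes and all measured genes; the number over a bar is the genes in the range. Between 250 and 1000, 38.8% of antisense genes and 20.3% of all genes were higher.

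Among the antisense genes past 2-fold, 8 share a short promoter region with their sense gene whose sequence is held whole in the RefSeq promoter table. Both genes start at its ends and point apart. The sequences are shown because a difference common to both genes or limited to the antisense gene can be read against the same stretch of DNA. Each is the stretch between the starts, neither start included, written 5′ to 3′ on the strand of the antisense gene with GRCh38.p14 coordinates, and capitals mark GGGCGG, the core of the GC box bound by Sp1, or CCAAT, on either strand.
TRAM2-AS1 and TRAM2, chr6:52577061-52577201, plus strand, 141 bases: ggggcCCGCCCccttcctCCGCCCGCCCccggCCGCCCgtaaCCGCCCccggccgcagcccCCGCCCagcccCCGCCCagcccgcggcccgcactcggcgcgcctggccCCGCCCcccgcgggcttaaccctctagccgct
TPT1-AS1 and TPT1, chr13:45341184-45341344, plus strand, 161 bases: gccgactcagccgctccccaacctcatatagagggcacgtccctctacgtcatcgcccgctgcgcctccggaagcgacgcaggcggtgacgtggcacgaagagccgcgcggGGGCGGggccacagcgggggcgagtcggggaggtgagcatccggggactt
PCBP1-AS1 and PCBP1, chr2:70087376-70087476, minus strand, 101 bases: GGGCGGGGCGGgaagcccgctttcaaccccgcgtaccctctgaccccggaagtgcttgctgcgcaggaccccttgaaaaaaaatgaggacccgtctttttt
DSP-AS1 and DSP, chr6:7541425-7541670, minus strand, 246 bases: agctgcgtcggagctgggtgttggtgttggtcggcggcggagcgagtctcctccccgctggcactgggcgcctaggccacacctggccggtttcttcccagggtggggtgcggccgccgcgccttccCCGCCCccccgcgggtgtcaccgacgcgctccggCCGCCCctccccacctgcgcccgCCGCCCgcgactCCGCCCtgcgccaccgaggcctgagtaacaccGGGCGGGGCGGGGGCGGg
SCAMP1-AS1 and SCAMP1, chr5:78360542-78360616, minus strand, 75 bases: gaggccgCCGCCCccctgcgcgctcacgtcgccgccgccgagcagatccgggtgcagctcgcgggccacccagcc
PSMB8-AS1 and PSMB8, chr6:32844048-32844085, plus strand, 38 bases: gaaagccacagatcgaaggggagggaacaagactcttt
ZNF407-AS1 and ZNF407, chr18:74597836-74597869, minus strand, 34 bases: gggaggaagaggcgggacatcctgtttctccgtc
RBM26-AS1 and RBM26, chr13:79406256-79406308, plus strand, 53 bases: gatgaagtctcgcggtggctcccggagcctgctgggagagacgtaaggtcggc

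In TRAM2-AS1 and TPT1-AS1 both genes of the pair were higher with p53 on. TRAM2 encodes a protein of the endoplasmic reticulum translocation site that takes part in collagen synthesis. TRAM2-AS1 had 358 and 775 (2.17-fold), and TRAM2 had 1519 and 3514 (2.31-fold). TPT1 encodes the translationally controlled tumor protein, a growth-related protein reported to act against p53. TPT1-AS1 went from 176 to 364 (2.07-fold) in its brightest probe set, and TPT1 from 33212 to 73444 (2.21-fold). The further measured probe sets of TPT1-AS1 had log2 ratios of -0.70, -0.54 and 0.36, so they did not share a direction.

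In PCBP1-AS1 the genes of the pair lay on opposite sides. PCBP1 is an RNA-binding protein and iron chaperone whose gene has no introns. PCBP1-AS1 had 195 with p53 off and 531 with p53 on (2.73-fold), and PCBP1 had 12197 and 5295 (2.30-fold lower). All 5 measured probe sets of PCBP1-AS1 were higher with p53 on, at log2 ratios of 0.12 to 1.98. The 101 bases between the 2 starts hold 2 overlapping GGGCGG cores at the PCBP1 end.

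In the other 5 pairs the sense gene stayed within 2-fold. DSP-AS1, across from the desmosome protein desmoplakin, went from 91.8 to 515 (at least 4.58-fold higher), while DSP went from 6858 to 11275 (1.64-fold). SCAMP1-AS1 went from 46.6 to 238 (at least 2.12-fold), and SCAMP1, a membrane protein of vesicle recycling, from 1667 to 2482 (1.49-fold). PSMB8-AS1 went from 47.5 to 226 (at least 2.02-fold), and PSMB8, an immunoproteasome subunit, from 727 to 662. These 3 antisense genes were under the floor with p53 off, so their folds are bounds. ZNF407-AS1 was bright on both arrays, at 670 and 2287 (3.42-fold), while its zinc-finger sense gene ZNF407 was at 534 and 592 (1.11-fold). RBM26-AS1, from 379 to 172 (2.21-fold lower), was the lower one of the 8, and RBM26, an RNA-binding protein, went from 2402 to 1467 (1.64-fold lower). A second measured probe set of RBM26-AS1 had a log2 ratio of 0.36.

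In all, 34 pairs pointing apart had their whole stretch in the table, with a length of 3 to 249 bases and a median of 108 bases. The median GC content of these stretches was 72.3%. GGGCGG occurred in 19 of them and CCAAT in 3.

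Promoter windows of antisense genes, 250 bases before to 50 after the start, were searched on both strands in the RefSeq table of GRCh38.p14, which matched 272 of the 357 genes with 322 windows. GGGCGG was in 52.2% of these windows and in 45.0% of all promoter windows of that length, and TATAAA was in 5.59% and 11.5%. CCAAT was in 26.4% against 34.6%, and TTTGAA, the core of the CHR element of cell-cycle genes, in 8.70% against 15.2%. Windows of antisense genes at least 2-fold higher held TTTGAA in 15.7%, and those of genes at least 2-fold lower in 5.26%. The median GC content was 62.7% in antisense windows and 58.7% in all windows, and its part in these shares was not tested. The decamer of the p53 response element without a mismatch was in 9.32% of antisense windows and in 6.63% of all windows. For genes at least 2-fold higher it was in 5 of 51 windows (9.80%) and for those at least 2-fold lower in 1 of 19 (5.26%). The 5 higher genes were ANXA2R-AS1, GABPB1-AS1, LHX4-AS1, NR2F1-AS1 and SCAMP1-AS1. The lower one was AGAP2-AS1, whose window holds the decamer at 2 places, GGGCTAGCCC and GGGCATGTCC. A pair of decamers separated by up to 13 bases was in 0 antisense windows and in 0.0285% of all windows. A match only describes the letters of the window.

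The largest differences on the higher side included several antisense genes that were near or under the floor with p53 off. SSTR5-AS1, across from the somatostatin receptor gene SSTR5, gave 6.76 without and 1523 with p53 induction, at least 13.6-fold higher. TSKU-AS1 had 30.8 and 742 (at least 6.61-fold), while TSKU, which encodes the secreted protein tsukushi, had 800 and 1065 (1.33-fold). ANXA2R-AS1 was above the floor on both arrays, at 297 and 1848, 6.22-fold higher. SPAG5-AS1 had 17.5 and 620 (at least 5.52-fold) and, in its second probe set, 127 and 354. Its sense gene SPAG5, which encodes the spindle protein astrin, had 3137 and 4161 (1.33-fold).

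KANSL1-AS1, from the locus of a subunit of a histone acetyltransferase complex, had 104 and 586 (at least 5.21-fold). Its only measured probe set can detect more than 1 transcript. PSMD6-AS2 was above the floor on both arrays at 231 and 1081 (4.67-fold), and its second probe set had 41.9 and 284. PSMD6, a subunit of the proteasome's regulatory particle, had 11278 and 11004. PSMD6-AS2 and SPAG5-AS1 therefore differed by over 2-fold in every measured probe set while their sense genes differed by less than 1.5-fold.

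NOP14-AS1 had 94.0 and 522 (at least 4.65-fold) in a probe set that can detect more than 1 transcript, and 133 and 42.6 in its other probe set, a log2 ratio of -0.24. SLCO4A1-AS1 had 102 and 511 (at least 4.55-fold), OVOL1-AS1 had 91.9 and 508 (at least 4.52-fold), SH3BP5-AS1 had 36.8 and 481 (at least 4.28-fold) and SMAD5-AS1 had 37.2 and 480 (at least 4.27-fold). SLCO4A1 is an organic anion transporter, OVOL1 a transcription factor of epithelial differentiation, SH3BP5 a Rab exchange factor and SMAD5 a mediator of BMP signalling. Their antisense partners were all under the floor with p53 off and clearly above it with p53 on.

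**Figure D3:**
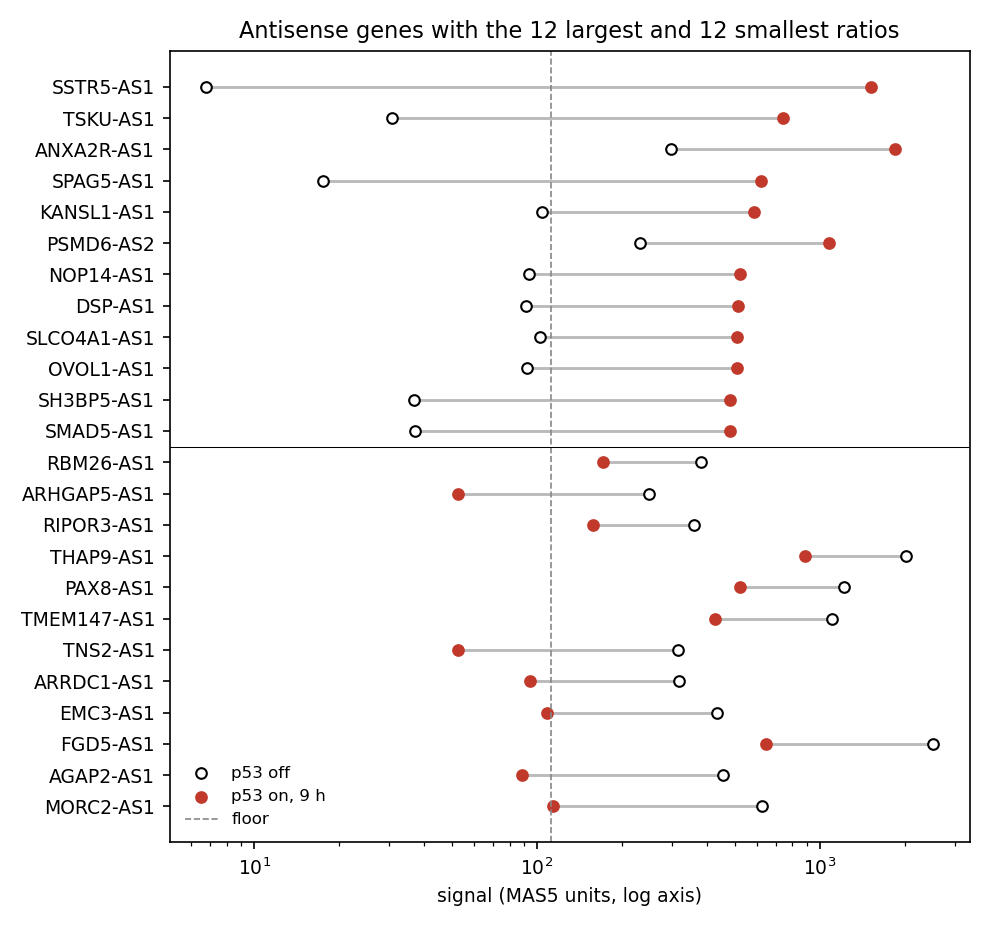
Signal with p53 off (open) and p53 on (red), in MAS5 units on a log axis, of the antisense genes with the 12 largest ratios (above the line) and the 12 smallest (below it); the dashed line is the floor of 112.4. Of the upper 12, ANXA2R-AS1 and PSMD6-AS2 were above the floor on both arrays.

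Other bright antisense genes past 2-fold, named here after their values were seen, had both signals above the floor. C1QTNF1-AS1 had 201 and 778 (3.87-fold), DOCK8-AS1 had 412 and 1533 (3.72-fold) and IDI2-AS1 had 226 and 799 (3.54-fold). PRRT3-AS1 had 475 and 1364 (2.87-fold), ENTPD1-AS1 had 373 and 969 (2.60-fold) and MIF-AS1 had 368 and 823 (2.23-fold). The only measured probe set of MIF-AS1 can detect more than 1 transcript. GABPB1-AS1, across from a subunit of the transcription factor GABP, had 498 and 1392 (2.80-fold), and its 5 measured probe sets all had log2 ratios between 0.84 and 1.48.

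On the lower side most of the genes named were bright with p53 off. MORC2-AS1 had 622 with p53 off and 114 with p53 on (5.45-fold lower), and MORC2, a chromatin-compacting ATPase, had 3309 and 1788 (1.85-fold lower). FGD5-AS1, a long noncoding RNA studied in colorectal and other cancers, had 2520 and 646 (3.90-fold lower). AGAP2-AS1 had 455 and 88.5 (at least 4.05-fold lower), EMC3-AS1 had 432 and 109 (at least 3.85-fold lower), ARRDC1-AS1 had 319 and 94.2 (at least 2.84-fold lower) and TNS2-AS1 had 316 and 52.7 (at least 2.81-fold lower). The sense genes EMC3, ARRDC1 and TNS2 differed by less than 1.2-fold.

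THAP9-AS1 had 2015 and 883 (2.28-fold lower) and its sense gene THAP9, a gene derived from a DNA transposase, had 353 and 214 (1.65-fold lower). The only measured probe set of THAP9-AS1 can detect more than 1 transcript. PAX8-AS1 had 1214 and 524 (2.32-fold lower) in its brightest probe set and 153 and 295 in another, which is the opposite direction. PAX8, a transcription factor of thyroid and kidney, had 575 and 487. Values of PAX8-AS1 therefore depended on the probe set.

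The brightest antisense genes lay on both sides of equality. HOXB-AS3, from the HOXB cluster and reported to encode a small peptide in colon cells, had 9881 and 8545 in its brightest probe set, a log2 ratio of -0.21. Its other 4 measured probe sets had log2 ratios of -0.35, -0.41, -1.20 and -2.20, so all 5 were lower with p53 on by different amounts. The brightest of the 5 can detect more than 1 transcript. Without such probe sets HOXB-AS3 is represented by 2013 and 440, the log2 ratio of -2.20, so its signal and ratio depended on the probe set. AFAP1-AS1, often described as abundant in carcinomas, had 6351 and 4755 (log2 ratio -0.42) and a second probe set at -0.68, while AFAP1, an actin filament-associated protein, had 102 and 164. OIP5-AS1, also called cyrano and known to bind the RNA-stabilizing protein HuR, had 3781 and 2569 (log2 ratio -0.56), and its further probe sets had log2 ratios of -0.64 and -1.20, the latter past 2-fold. PRR34-AS1 was the brightest antisense gene past 2-fold, at 1955 and 6980 (3.57-fold higher), and RUSC1-AS1 had 1187 and 1861 (1.57-fold higher).

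Probe sets give the only repeated measure of a gene here, although they share the arrays and RNA and may detect different transcripts. Of the 357 antisense genes, 63 had 2 or more measured probe sets, and in 42 of these (66.7%) all had the same sign, against 58.6% of 6680 such genes in all. The median absolute difference of a further probe set from the brightest was 0.52 on the log2 scale, against 0.56 over all genes. Of the antisense genes past 2-fold, 18 had 2 or more measured probe sets and 12 of these had a common sign. All probe sets of PSMD6-AS2, SPAG5-AS1 and TRAF3IP2-AS1 were at least 2-fold higher with the deposited scaling. The less bright probe sets of SPAG5-AS1 and TRAF3IP2-AS1 can detect more than 1 transcript. TRAF3IP2-AS1 had 145 and 308, and 125 and 318, in its 2 probe sets. On floored signals, 0 of the 63 had probe sets past 2-fold in opposite directions. This count does not exclude such differences under the floor: NOP14-AS1, described above, and CIRBP-AS1, named here after its values were seen, had probe sets of opposite direction with signals under the floor, the latter with 98.3 and 274 against 122 and 37.6.

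**Figure D4:**
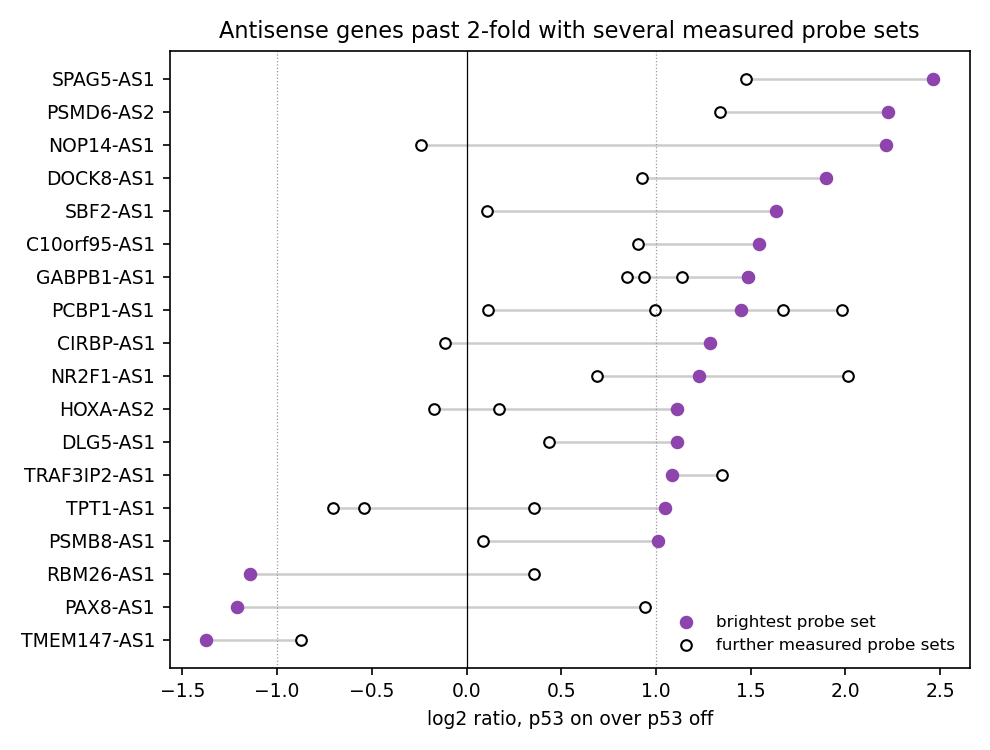
Log2 ratio of p53 on over p53 off in each measured probe set of the 18 antisense genes past 2-fold that had several; the filled point is the brightest probe set and dotted lines mark 2-fold. In 12 genes all probe sets lay on the same side of 0.

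Of 42 antisense RNAs listed for known functions or disease links, 30 had a probe set and 24 were measured. Of these, 6 were at least 2-fold higher, against 15.2% of all measured genes, and 2 were at least 2-fold lower (FGD5-AS1 and THAP9-AS1), against 13.4%. At 1.5-fold, 10 were higher and 3 lower, and their median log2 ratio was 0.037 against 0.0044 for all genes.

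The 6 higher genes were of low or moderate signal. SBF2-AS1 had 127 and 394 (3.10-fold), with a second probe set at 93.3 and 121, and SBF2 itself had 1217 and 1210. HOXA-AS3 had 118 and 319 (2.70-fold) and HOXA-AS2 had 8.16 and 243 (at least 2.16-fold), both from the HOXA cluster of developmental transcription factors. The other measured probe sets of HOXA-AS2 had log2 ratios of 0.17 and -0.17. GAS6-AS1, across from the ligand of the TAM receptor kinases, had 106 and 279 (at least 2.49-fold), and the other two were PCBP1-AS1 and TRAF3IP2-AS1.

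The other 16 listed members did not pass 2-fold, 6 of them with a bound in place of a ratio because a signal was under the floor. TMPO-AS1, which starts next to the gene of the nuclear envelope protein thymopoietin, had 216 and 51.5 (at least 1.92-fold lower). MCM3AP-AS1 had 130 and 197 in its brightest probe set and 174 and 128 in the other, the opposite direction. NNT-AS1 had 325 and 495, ZEB1-AS1 had 116 and 183 and FOXD2-AS1, under the floor with p53 off, had 6.43 and 175 (at least 1.56-fold higher). The only measured probe set of FOXD2-AS1 can detect more than 1 transcript. HOXC-AS3 had 29.99 and 143 (at least 1.27-fold higher), ADAMTS9-AS2 had 33.1 and 122 (at least 1.08-fold higher), LEF1-AS1 had 159 and 29.5 (at least 1.41-fold lower) and FOXP4-AS1 had 143 and 65.0 (at least 1.27-fold lower). HOXB-AS1 and DLGAP1-AS2 were above the floor on both arrays, with log2 ratios of -0.24 and -0.37. A second probe set had the opposite direction for DLGAP1-AS2 (195 and 210) and for LEF1-AS1 (58.7 and 129).

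MAPKAPK5-AS1 had 776 and 623 in its brightest probe set, a log2 ratio of -0.32, and its further probe sets had -0.99 and -0.45, all lower with p53 on. PSMA3-AS1 had 595 and 552, a log2 ratio of -0.11, with 0.18 and 0.74 in the further probe sets, which were higher. PITPNA-AS1 had 646 and 628 in its only probe set.

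Long noncoding RNAs linked to p53 in the literature were followed for comparison. Of 32 symbols listed, 19 had a probe set and 14 were measured. Of these 14, 0 were at least 2-fold higher, against 15.2% of all measured genes, and 1 was at least 2-fold lower, against 13.4%. Their median log2 ratio was -0.19. With 14 genes these counts are small. PANDAR, DINOL, PINCR, MIR34AHG and NEAT1 had no probe set of their own and PURPL was under the floor, so the counts leave them out. There was no replicated test, so no p-value stands behind this count. DLEU1, named for a deletion in leukemia, had 1375 and 467 (2.95-fold lower). TUG1 had 7269 and 3779 (1.92-fold lower), MALAT1 had 14580 and 25318 (1.74-fold higher) and LINC-PINT had 132 and 229 (1.73-fold higher).

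The sense gene was measured for 287 of the 357 antisense genes, which gave 287 pairs with 281 distinct sense genes. For 7 antisense genes the symbol before the dash is no gene, for 25 the sense gene had no probe set of its own, and for 38 it was under the floor. The sense gene was the brighter one in 232 of the 287 pairs. Of the sense genes, 45 (16.0%) were at least 2-fold higher with p53 on and 32 (11.4%) at least 2-fold lower, close to the 15.2% and 13.4% of all measured genes. Both genes of the pair had a log2 ratio of the same sign in 157 of 287 pairs (54.7%), and Pearson's r between the 2 log2 ratios was 0.26 over the 287 pairs, all measured on the same 2 arrays.

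The arrangement of the 2 genes was read from RefSeq. Starts on opposite strands within 2000 bases were found for 94 pairs, of which 56 (59.6%) had the same sign, with r = 0.37. In 90 pairs the genes overlapped with starts farther apart, 42 (46.7%) had the same sign and r was 0.11. The difference between these arrangements was not tested. Of the 94 pairs, 45 pointed apart, 25 of them with the same sign, and 49 had overlapping 5′ ends, 31 of them with the same sign. Another 919 pairs of measured genes on opposite strands with starts within 2000 bases had the same sign in 60.6%, with r = 0.29, close to the antisense pairs. For 96 pairs the arrangement was not classified here, and 57 of these (59.4%) had the same sign. In 6 further pairs the genes lay apart, without overlap or near starts, and 2 of these had the same sign. In 1 pair both genes were on the same strand.

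**Figure D5:**
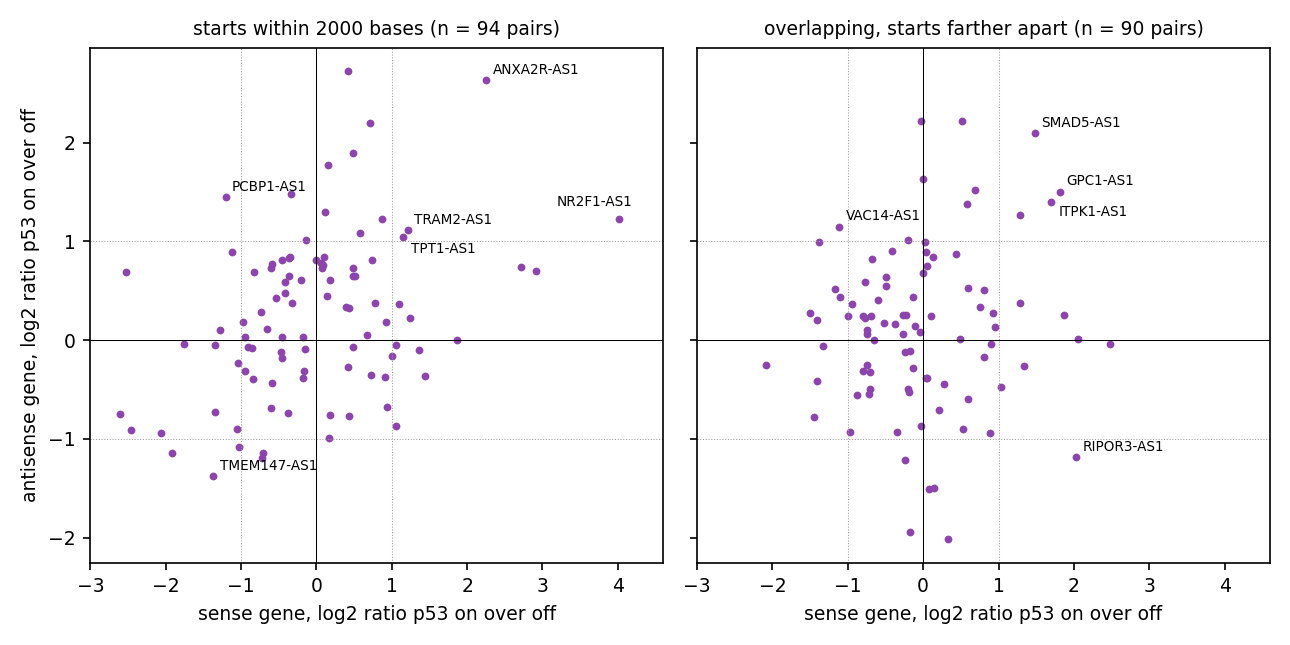
Log2 ratio of p53 on over p53 off of each antisense gene (y axis) and its sense gene (x axis), for 94 pairs with starts within 2000 bases (left) and 90 overlapping pairs with starts farther apart (right); dotted lines mark 2-fold. Points of the left panel spread along the diagonal (r = 0.37) more than those of the right panel (r = 0.11).

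In 20 pairs both genes were past 2-fold in the same direction, 17 higher and 3 lower, and in 4 pairs in opposite directions. Of the 43 antisense genes at least 2-fold higher with a measured sense gene, the sense gene was higher in 17, lower in 2 and within 2-fold in 24. Of the 14 lower ones, the sense gene was lower in 3, higher in 2 and within 2-fold in 9. Over all 281 measured sense genes, 16.0% were higher and 11.4% lower. Among the 94 pairs with starts within 2000 bases, both genes were past 2-fold and higher in 4, lower in 3 and opposite in 1. The 919 other such pairs had 26, 50 and 12. The 96 antisense pairs of unclassified arrangement had 9, 0 and 0, and the 90 overlapping pairs with starts farther apart had 4, 0 and 2. These shares were not tested against each other.

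The pairs with both genes higher included a textbook p53 target. TNFRSF10B encodes the TRAIL death receptor DR5, a direct p53 target, and had 3862 with p53 off and 16171 with p53 on (4.19-fold), while TNFRSF10B-AS1 had 112 and 300 (at least 2.67-fold). RefSeq gives TNFRSF10B-AS1 the biotype transcribed pseudogene and not long noncoding RNA. Its only measured probe set can detect more than 1 transcript, and the arrangement of this pair was not classified. ITGB8, an integrin subunit that binds latent TGF-beta, had 89.3 and 11745 (at least 104.5-fold), the largest ratio of any measured gene, and ITGB8-AS1 had 40.7 and 236 (at least 2.10-fold). ANXA2R had 275 and 1313 (4.77-fold) beside the 6.22-fold of ANXA2R-AS1. NR2F1, a nuclear receptor also called COUP-TFI, had 132 and 2149 (16.2-fold), and NR2F1-AS1 had 252 and 591 (2.34-fold), with all 3 of its probe sets higher.

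OVOL1 had 346 and 2487 (7.19-fold), SLCO4A1 had 1736 and 7314 (4.21-fold), SMAD5 had 1136 and 3183 (2.80-fold) and KANSL1 had 1278 and 2579 (2.02-fold), each with an antisense gene that was at least 4-fold higher. PRR34 had 27.2 and 495 (at least 4.40-fold) beside PRR34-AS1. GPC1, a heparan sulfate proteoglycan, had 1192 and 4185 (3.51-fold), with GPC1-AS1 at 55.5 and 319 (at least 2.84-fold). ITPK1, an inositol phosphate kinase, had 1612 and 5207 (3.23-fold), with ITPK1-AS1 at 71.8 and 297 (at least 2.64-fold). The pairs of DLG5, JMJD1C, LHX4, TPT1, TRAF3IP2 and TRAM2 make up the rest, with sense genes between 2.2-fold and 2.7-fold higher. As for TNFRSF10B, the arrangement was not classified for the pairs of ITGB8, OVOL1, SLCO4A1, KANSL1, PRR34, DLG5, JMJD1C and TRAF3IP2.

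The pairs with both genes lower were TMEM147, SPINT1 and ARHGAP5, each with starts within 2000 bases. TMEM147-AS1 had 1108 and 427 (2.59-fold lower) and TMEM147, a protein of the endoplasmic reticulum and nuclear envelope, had 4574 and 1771 (2.58-fold lower). SPINT1-AS1 had 607 and 287 (2.12-fold lower) and SPINT1, an inhibitor of hepatocyte growth factor activator, had 4732 and 2311 (2.05-fold lower). The only measured probe set of SPINT1-AS1 can detect more than 1 transcript. ARHGAP5-AS1 had 249 and 52.7 (at least 2.21-fold lower) and ARHGAP5 had 2445 and 646 (3.78-fold lower).

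The pairs in opposite directions were those of FGD5, PCBP1, RIPOR3 and VAC14. In RefSeq the genes of the FGD5 pair neither overlapped nor had starts within 2000 bases. FGD5 had 83.5 and 368 (at least 3.27-fold higher) while FGD5-AS1 was lower. RIPOR3 had 23.2 and 460 (at least 4.09-fold higher) while RIPOR3-AS1 had 358 and 158 (2.27-fold lower). VAC14, a scaffold of phosphoinositide kinase PIKfyve, had 547 and 253 (2.16-fold lower) while VAC14-AS1 had 119 and 265 (2.22-fold higher).

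Some antisense genes lie beside genes linked to cell division or growth, and those below were picked after their values were seen because the sense gene was lower with p53 on. SPAG5, described above, was not lower. TMPO had 9052 and 2175 and HMMR, a spindle and hyaluronan-binding protein, had 6364 and 1502. TMPO-AS1 and HMMR-AS1 were under the floor with p53 on, HMMR-AS1 at 134 and 22.0 (at least 1.19-fold lower). DEPDC1, a mitotic regulator, had 2877 and 499, while DEPDC1-AS1 had 31.4 and 181 (at least 1.61-fold higher) although its start lies within 2000 bases of that of DEPDC1. NIFK, a nucleolar partner of the proliferation antigen Ki-67, had 10093 and 3688, and NIFK-AS1 had 227 and 132. OIP5, a centromere protein, had 2538 and 1376 beside the 3781 and 2569 of OIP5-AS1. DEPDC1-AS1 was thus higher with p53 on, while TMPO-AS1, HMMR-AS1, NIFK-AS1 and OIP5-AS1 were lower. These are picked examples and give no count over pairs of this kind. A pair not picked, DIAPH3, had a lower sense gene (log2 ratio -0.97) and DIAPH3-AS1 at 52.0 and 127.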

How the data were processed

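RNA of DLD-1 cells with p53 off and p53 on was hybridized to 1 Affymetrix array each. The deposited values are signal intensities on a linear scale, 1 per probe set, made by the authors. The submitters' processing notes name MAS5. Its version and its settings are not stated in these sources. Each array held 54675 probe sets. Precision rests on the number of arrays, 1 per condition.

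GEO's annotation of the platform gave the gene symbols. Of those that were not controls, 41091 had 1 symbol, 1801 had several, which were set aside, and 11721 were unnamed here. The identifiers of 41037 were found in the RefSeq gene table, and 0 symbols changed. Probe sets with a signal of at least 112.4 on either array were kept, the brightest by mean signal stood for a gene, signals under 112.4 were set to it, and log2 ratios of p53 on over p53 off were taken. The deposited scaling was kept. Sense genes were matched by the symbol before the dash, and starts were compared within the RefSeq tables of GRCh38.p14. No coordinates of probe sets were used.

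The members and lists were chosen with earlier results of these data known. Genes named are those with the 12 largest and 12 smallest log2 ratios, the 6 brightest, those whose probe sets all passed 2-fold, the known antisense list, their sense genes, the 4 p53-related long noncoding RNAs with the largest ratios and the neighbours of the floor. Others were named after their values were seen. The gene coding for p53 is not reported here. Alternatives were the floor, pseudocount, scaling, probe set choice and annotation. The log2 ratios were tested on simulated data, with changed genes drawn well above the floor. Counts past 2-fold and changes of dim genes were not tested in this way. Python 3.11.15, numpy 2.4.6, pandas 2.3.3, statsmodels 0.14.6 and matplotlib 3.10.9 were used.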

Additional observations from a re-analysis of the deposited data

Results flagged for a closer look

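Signals outside the gene comparison differed between the arrays. The 18 probe sets of the hybridization spike-ins had a median ratio of p53 on over p53 off of 1.89, with a range of 1.47 to 2.59, where the trimmed mean of all probe sets was equal. The control probe set for Alu repeats had 33465 with p53 off and 89749 with p53 on, a ratio of 2.68. Of 16 measured probe sets that carry several symbols, an antisense symbol among them, 2 passed 2-fold upward and 3 downward, against 15.2% and 13.4% of all measured genes. The higher ones were the probe set of LOC101927830 and TMLHE-AS1, with a fold of 2.22, and that of SP2-DT and SP2-AS1, with a fold of 2.48. Which of the named genes these detect was not tested.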

How the results depend on the processing

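No replicate was left out, since there was 1 array per condition. No paired analysis was possible because no result comes from a test and each group has 1 array. Dim signals limit what can be seen, since 54.9% of the antisense genes had a signal under the floor.

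With the floor at the 40th percentile, 501 antisense genes were measured, and 92 were at least 2-fold higher and 34 lower (18.4% and 6.79%, against 17.0% and 13.5% of all genes), 167 and 87 at 1.5-fold. With the floor at the 60th percentile 219 were measured, with 32 and 10 (14.6% and 4.57%, against 14.97% and 14.4%), 64 and 23 at 1.5-fold, and 95 pairs of the same sign (60.1%). Without a floor and with a pseudocount of 1 the counts were 128 and 56 (35.9% and 15.7%, against 22.9% and 17.7%), 168 and 90 at 1.5-fold, and the median log2 ratio was 0.47 for antisense genes and 0.25 for other named long noncoding RNAs. With a pseudocount equal to the floor the median was 0.27, and 30 genes at 250 or more were higher. After quantile normalization the median was 0.056, 27 antisense genes were lower (7.69%, against 13.6% of all genes), 20 of them at 250 or more, and the other named long noncoding RNAs had a median of -0.029. After loess normalization 31 were lower (8.68%, against 11.35%), and the share of antisense genes at least 2-fold higher was 10.6%, below the 15.1% of all genes. Scaled to the spike-ins, 16 were higher and 81 lower (4.24% and 21.5%, against 5.84% and 41.3% of all genes), 31 and 151 at 1.5-fold, 13 and 44 at 250 or more (14.8% and 50%, against 7.32% and 54.9%), with medians of -0.37 for antisense genes, -0.81 for sense genes and -0.46 for other named long noncoding RNAs. Restricted to genes with both signals at or above the floor, an alternative added after seeing the data, 28 were higher and 9 lower (17.4% and 5.59%, against 14.7% and 15.6%), 52 and 27 at 1.5-fold, 28 were higher at 250 or more, 62 pairs had the same sign and other named long noncoding RNAs had a median of 0.0074.

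Of 635 values of the 52 named genes under the alternatives, 614 moved by less than the spread between probe sets of a gene (SD 0.92 on the log2 scale), 19 by more, and 2 past 2-fold changed sign, HOXA-AS2 to -0.30 with spike-in scaling and NOP14-AS1 to -0.24 without probe sets shared between transcripts. The cause of these sign changes was not tested. Spike-in scaling lowers the log2 ratio of a gene above the floor by slightly less than that SD. Such a gene is therefore among the 614 for that setting whatever its value, and the 614 is no measure of stability. Several named genes past 2-fold fell under it in some setting. Examples of the lowest values on the higher side are PRR34-AS1 (0.92), SBF2-AS1 (0.71), PCBP1-AS1 (0.53), HOXA-AS3 (0.51), GAS6-AS1 (0.47) and TRAF3IP2-AS1 (0.16). On the lower side PAX8-AS1 reached -0.13 and RBM26-AS1 -0.39. Among genes within 2-fold, RUSC1-AS1 (-0.27), NNT-AS1 (-0.31), ZEB1-AS1 (-0.27) and MCM3AP-AS1 (-1.10) were examples that reached the other sign. Centring on the median gene, the mean of all measured probe sets, leaving out probe sets shared between transcripts, the platform's own symbols and taking the brightest probe set before the floor (added after seeing the data) moved no count of antisense genes by over 1.5 times.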
